A study of Homo sapiens with 16 samples.

Results

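The nuclear genes of mitochondrial respiratory complexes II to V were followed in 4 non-small cell lung cancer cell lines. The set held every protein-coding row whose symbol names a succinate dehydrogenase subunit or assembly factor (SDHA to SDHD, SDHAF genes), a cytochrome bc1 subunit (UQCR genes, CYC1), cytochrome c (CYCS), a cytochrome c oxidase gene (COX genes followed by a number) or an ATP synthase gene (ATP5 genes, ATPAF1, ATPAF2). It came to 64 genes of the 28951 in the table, of which 63 had enough reads to be tested, and COX6B2 did not. Another 19 matching pseudogene rows were left out, and COX4I2, COX6A2, COX7B2 and COX8C were not analysed here. Complex II had 8 of the genes, complex III 10, complex IV 22 and complex V 23, and CYCS made up the rest.

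Libraries came from H460 and H1703 cells, which the submitters call responsive, and from HCC827 and H441 cells, which they call non-responsive. Each line was grown in RPMI with serum and was given Combo for 48 h, the MYC inhibitor MYCi975 at 5 µM together with the class IIa histone deacetylase inhibitor TMP195 at 25 µM. Each line also had its own Vehicle, DMSO for the same time. There were 2 libraries for each line and treatment, 16 in all, and the single agents were not analysed here. What the lines respond to is not stated in the labels, and each class rests on 2 lines, so that a class difference cannot be told apart from differences among these lines. The labels do not tell whether libraries of one group were separate cultures, so p-values measure the spread between libraries, which may be technical. Depth was 8493271 to 13604150 reads per library. HCC827 libraries held 128272 to 136029 normalised reads of EGFR, against 1361 to 5337 elsewhere, and PDGFRA stood at 4696 to 11368 in H1703 and at most 1.09 elsewhere, which are the genes known to be amplified in these lines. The epithelial marker EPCAM was at 8.8 normalised reads or fewer in every H460 and H1703 library. The epithelial keratins KRT8, KRT18 and KRT19 were nevertheless high in H460, at 17082 to 20062, 3722 to 5308 and 6890 to 11043. In H1703 KRT8 was at 56.5 to 74.1, KRT18 at 145 to 195 and KRT19 at 1.09 or fewer.

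Complex II passes electrons from succinate to ubiquinone and is also an enzyme of the citric acid cycle. Complex III hands them to cytochrome c, complex IV passes them from cytochrome c to oxygen, and complex V uses the proton gradient that complexes III and IV help to build to make ATP. Complex II is encoded by nuclear genes alone, whereas complexes III, IV and V each also need subunits encoded in mitochondrial DNA. Assembly factors are proteins that insert cofactors or join subunits and do not stay in the finished enzyme. Tumour cells differ widely in how far they rely on this chain, and MYC is known to promote the expression of many mitochondrial genes.

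Promoters of 4 genes with a promoter window are printed as examples of different patterns of change. SDHD and ATP5F1C were lower in all 4 lines, UQCRFS1 was lower in both responsive lines, and SDHA was higher in H1703 and lower in HCC827. The stretches are the 250 bases before each RefSeq start on GRCh38.p14, SDHD at chr11:112086623-112086872 on the plus strand, ATP5F1C at chr10:7787927-7788176 on the plus strand, UQCRFS1 at chr19:29213152-29213401 on the minus strand and SDHA at chr5:218070-218319 on the plus strand. Capitals mark matches on either strand to the motif of nuclear respiratory factor 1 (NRF1), which is GCGC, then any base, then TGCGC, and in SDHD also 1 match to the ETS motif CCGGAAGT, read on the other strand.
SDHD: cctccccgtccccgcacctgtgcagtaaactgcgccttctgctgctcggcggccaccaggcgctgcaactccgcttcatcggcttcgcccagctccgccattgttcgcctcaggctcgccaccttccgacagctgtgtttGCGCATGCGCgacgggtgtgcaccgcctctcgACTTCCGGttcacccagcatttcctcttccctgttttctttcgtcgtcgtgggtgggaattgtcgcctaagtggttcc
ATP5F1C: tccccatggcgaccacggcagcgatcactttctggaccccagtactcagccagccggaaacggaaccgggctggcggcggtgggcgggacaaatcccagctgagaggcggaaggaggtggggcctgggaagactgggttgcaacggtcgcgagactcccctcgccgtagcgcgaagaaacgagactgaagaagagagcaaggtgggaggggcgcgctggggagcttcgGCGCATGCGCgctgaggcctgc
UQCRFS1: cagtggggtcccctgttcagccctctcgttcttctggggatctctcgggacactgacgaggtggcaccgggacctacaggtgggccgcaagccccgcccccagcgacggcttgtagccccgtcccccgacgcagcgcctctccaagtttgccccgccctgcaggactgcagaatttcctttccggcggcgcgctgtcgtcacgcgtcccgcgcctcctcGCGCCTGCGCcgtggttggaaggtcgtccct
SDHA: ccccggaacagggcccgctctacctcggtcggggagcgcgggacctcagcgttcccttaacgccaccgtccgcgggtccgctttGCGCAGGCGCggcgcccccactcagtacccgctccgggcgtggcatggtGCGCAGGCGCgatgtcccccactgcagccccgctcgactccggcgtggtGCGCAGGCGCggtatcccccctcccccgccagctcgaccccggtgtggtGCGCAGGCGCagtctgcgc
SDHA held 4 separate NRF1 matches in this stretch, and the other 3 promoters held 1 each. A promoter window of 250 bases before to 50 after the start was at hand for 50 of the 64 genes. The NRF1 motif was in 14 of these 50 windows, or 28%, against 12.1% of the 11697 tested coding genes with a window. The ETS motif, bound by GABP among others, was also in 14 windows, or 28%, against 8.99%. The YY1 motif AAGATGGCG was in 5 windows, or 10%, against 4.21%. The E-box CACGTG, which MYC binds with MAX, was in 6 windows, or 12%, against 12% of tested coding genes. A match says only that these letters are present.

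In every line the fitted change of most of these genes lay below zero, and calls of lower expression outnumbered calls of higher expression. Changes are Combo minus Vehicle on the deposited log2 scale, given ± SE, and a gene was called at an adjusted p under 0.05 (limma, Benjamini-Hochberg over 23968 genes). In H1703, 36 of 63 genes were called, 30 lower and 6 higher, where 35.5% of all genes tested were called, 17.6% lower and 17.9% higher. In H460, 17 were called, 15 lower and 2 higher, where 26.7% of all genes were called, 12.6% lower and 14.1% higher. In HCC827, 14 were called, 13 lower and 1 higher, where 9.92% of all genes were called, 5.5% lower and 4.42% higher. In H441, 2 were called, both lower, where 4.63% of all genes were called, 1.86% lower and 2.77% higher. The median change over the 63 genes was -0.37 in H1703, -0.17 in H460, -0.19 in HCC827 and -0.10 in H441, beside 0.08, 0.05, 0.00 and 0.00 over all genes tested. Under median centring, in which each library was centred on its own median, it was -0.61 in H1703, with 41 called lower, and -0.36 in H460, with 27 called lower. Of all genes tested, 24.3% in H1703 and 18.8% in H460 were called lower under that setting. Their reads took 0.262% to 0.272% of all reads in H1703 Combo libraries, against 0.336% to 0.339% in H1703 Vehicle libraries. In H460 the share was 0.313% to 0.318% with Combo and 0.386% to 0.396% with Vehicle. HCC827 and H441 moved less, with 0.235% to 0.239% under Combo and 0.241% to 0.25% under Vehicle in HCC827, and 0.193% to 0.195% under Combo and 0.213% to 0.217% under Vehicle in H441. The Combo and Vehicle libraries did not overlap in this share in any of the 4 lines. These are bulk cultures, in which fewer cells of a kind and less RNA per cell cannot be told apart. The HCC827 count was 1 without HCC827 Combo replicate 2, 5 without HCC827 Vehicle replicate 1 and 6 without HCC827 Vehicle replicate 2, and both H441 calls were lost without any one of the 4 H441 libraries. The H460 count was 10 without H460 Vehicle replicate 1.

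**Figure D1:**
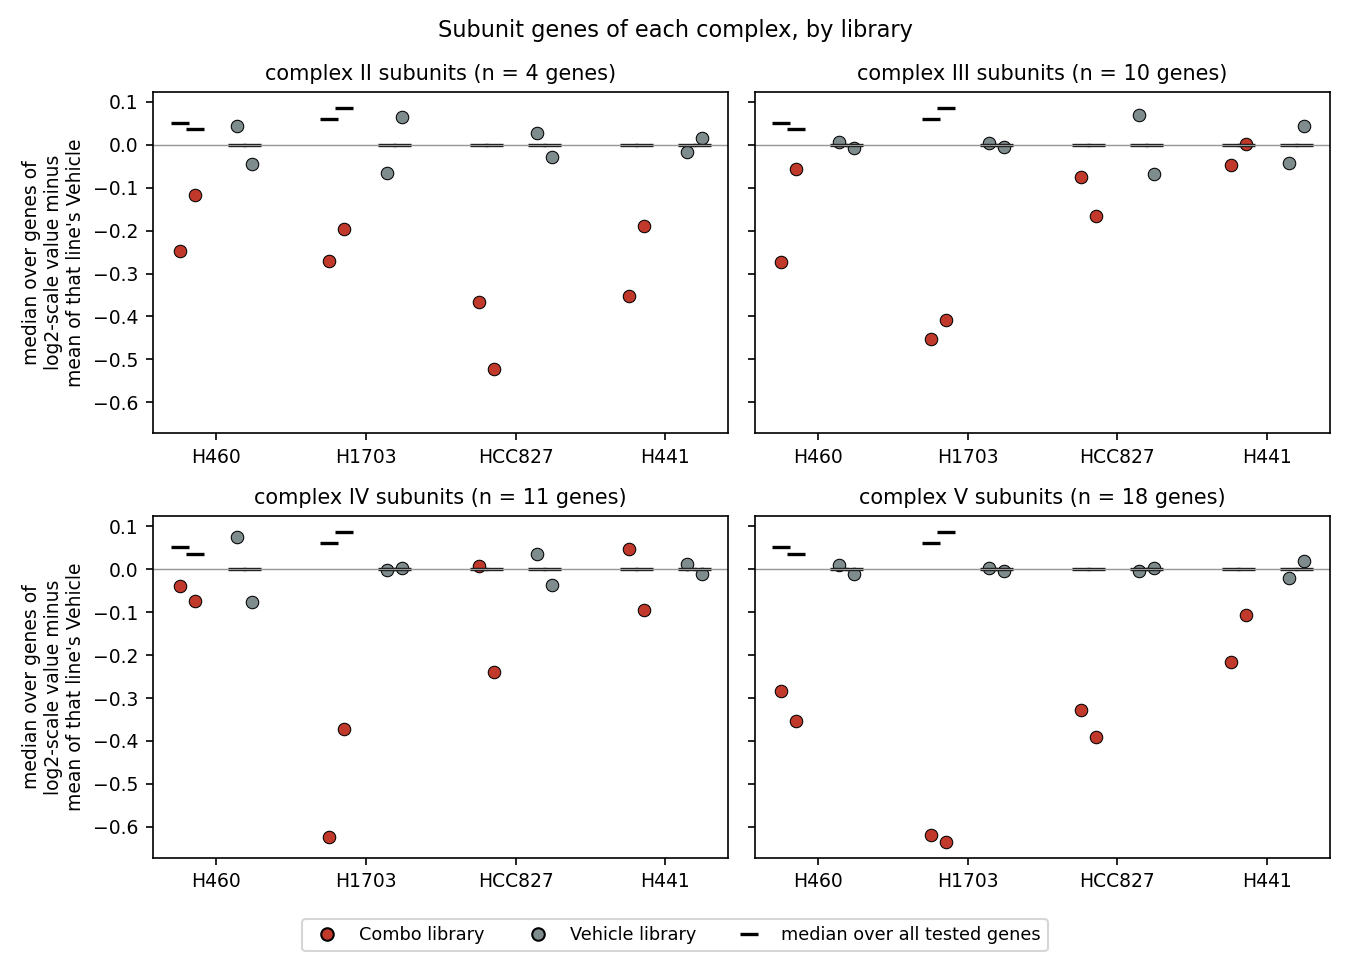
Median over the subunit genes of each complex of the log2-scale value minus the mean of that line's Vehicle libraries, 1 point per library, Combo (red) left of Vehicle (grey) in each line, with black dashes for the same median over all tested genes. The complex V points of H1703 Combo lie at -0.62 and -0.64 and those of H441 Combo at -0.21 and -0.11, all below both Vehicle points of their line.

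Falls called in more than one line were counted next. Of the 15 genes called lower in H460, 13 were also called lower in H1703, which is 86.7% of the H460 list and 43.3% of the 30 in H1703. Over all genes tested the shared falls made up 63.5% of the H460 list and 45.6% of the H1703 list. Of the 13 called lower in HCC827, 9 were called lower in H1703, or 69.2% of the HCC827 list and 30% of the H1703 list, against 64.5% and 20.2% over all genes tested. SDHD and ATP5F1C were called lower in all 4 lines, 4 genes in 3 lines, 10 in 2 lines and 20 in 1 line, and 22 genes were called in no line. The same counts by number of lines were not made over all genes tested, so whether these are unusual was not tested. Only COX19 was called higher in 3 lines, and SDHA alone was called higher in one line and lower in another.

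**Figure D2:**
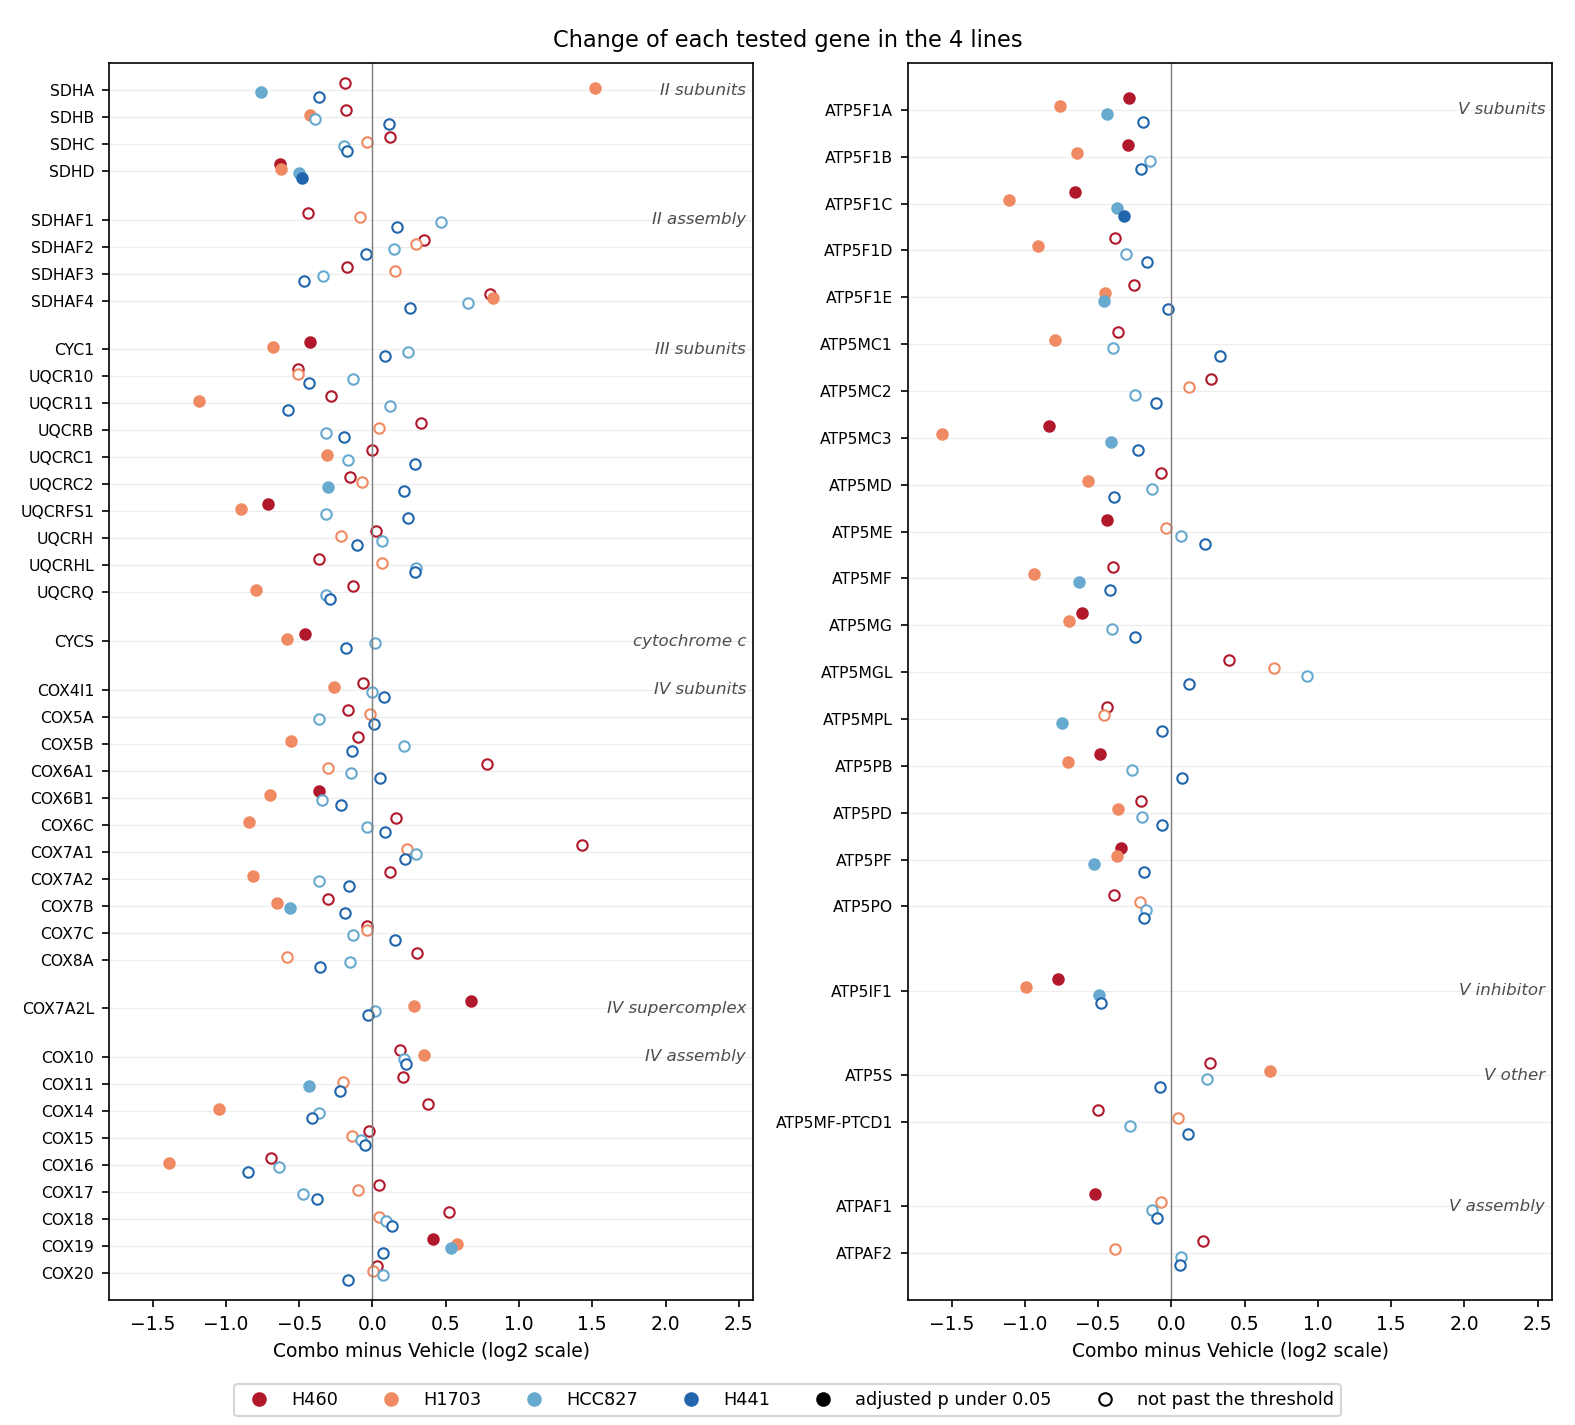
Combo minus Vehicle on the log2 scale for each of the 63 tested genes, grouped by complex and role, with 1 point per line and filled points past an adjusted p of 0.05 (limma). Most filled points lie left of zero, with SDHA in H1703 at 1.52 the farthest to the right among them and ATP5MC3 in H1703 at -1.56 the farthest to the left.

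In H1703 the subunits of succinate dehydrogenase were called in opposite directions, while no subunit was called higher in H460, HCC827 or H441. SDHD, a membrane anchor that holds the ubiquinone site together with SDHC, had 174 and 181 normalised reads with Combo in H460, against 292 and 263 with Vehicle. In H1703 it had 152 and 144 with Combo and 219 and 242 with Vehicle. In HCC827 it had 239 and 196 with Combo and 309 and 304 with Vehicle, and in H441 145 and 162 with Combo and 205 and 225 with Vehicle. Both Combo libraries lay below both Vehicle libraries in each line. SDHD was called lower in all lines, at -0.63 ± 0.13 (H460), -0.63 ± 0.13 (H1703), -0.50 ± 0.13 (HCC827) and -0.48 ± 0.13 (H441) (limma, adjusted p = 0.00102, 0.000796, 0.019 and 0.0418). The H441 call was lost in 8 of 16 leave-one-out fits, each without 1 library, with adjusted p = 0.239 without H441 Vehicle replicate 2, and the HCC827 call in 3, with adjusted p = 0.232 without HCC827 Combo replicate 2. The difference in SDHD response between the line classes was not called (-0.14 ± 0.13, limma adjusted p = 0.512). SDHD exons overlap those of TIMM8B on the other strand and those of AP002884.3 on the same strand. SDHD shares 13.1% of its 50-base stretches with other annotated genes, AP002884.3 among them.

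SDHA, the flavoprotein that oxidises succinate, had 675 and 673 normalised reads in H1703 with Combo and 231 and 236 with Vehicle. HCC827 libraries had 54.1 and 45.2 with Combo and 88.5 and 83 with Vehicle. In H460 it had 82.6 and 79.8 with Combo and 94.9 and 90.5 with Vehicle, and in H441 70.5 and 90.8 with Combo and 100 and 107 with Vehicle. The H1703 Combo libraries thus stood far above every other library, whereas in the other 3 lines both Combo libraries lay below both Vehicle libraries. The rise in H1703 was 1.52 ± 0.16 (limma adjusted p = 2.31e-07), the fall in HCC827 was -0.76 ± 0.16 (adjusted p = 0.00372), and H460 and H441 did not pass (-0.18 ± 0.16 and -0.37 ± 0.16, adjusted p = 0.458 and 0.233). The HCC827 call was lost without HCC827 Combo replicate 2 (adjusted p = 0.0634). Over the responsive lines SDHA was 0.67 ± 0.11 higher with Combo (limma adjusted p = 7.04e-05), a mean of one line that rose and one that did not pass, and over the non-responsive lines it was lower by -0.56 ± 0.11 (adjusted p = 0.00209). The response differed among the 4 lines (limma F test, adjusted p = 8.22e-07). SDHA shares 8.59% of its 50-base stretches with other annotated genes, among them the pseudogenes SDHAP1, SDHAP2 and SDHAP3.

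SDHB, the iron-sulfur subunit that carries electrons onward from SDHA, had 331 and 366 normalised reads in H1703 with Combo and 451 and 489 with Vehicle. It was called lower there, at -0.43 ± 0.14 (limma adjusted p = 0.0186), and at -0.30 ± 0.10 over the responsive lines (adjusted p = 0.0169), calls that were lost without H1703 Combo replicate 1 (adjusted p = 0.142) and without H460 Combo replicate 1 (adjusted p = 0.0892). In H460 SDHB had 362 and 449 normalised reads with Combo and 474 and 440 with Vehicle, and the groups overlapped. SDHC, the other membrane anchor, had 492 and 493 normalised reads in H1703 with Combo and 476 and 537 with Vehicle, and it passed in no line. In the same H1703 libraries, then, SDHA was higher, SDHB and SDHD were lower and SDHC showed no called change.

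**Figure D3:**
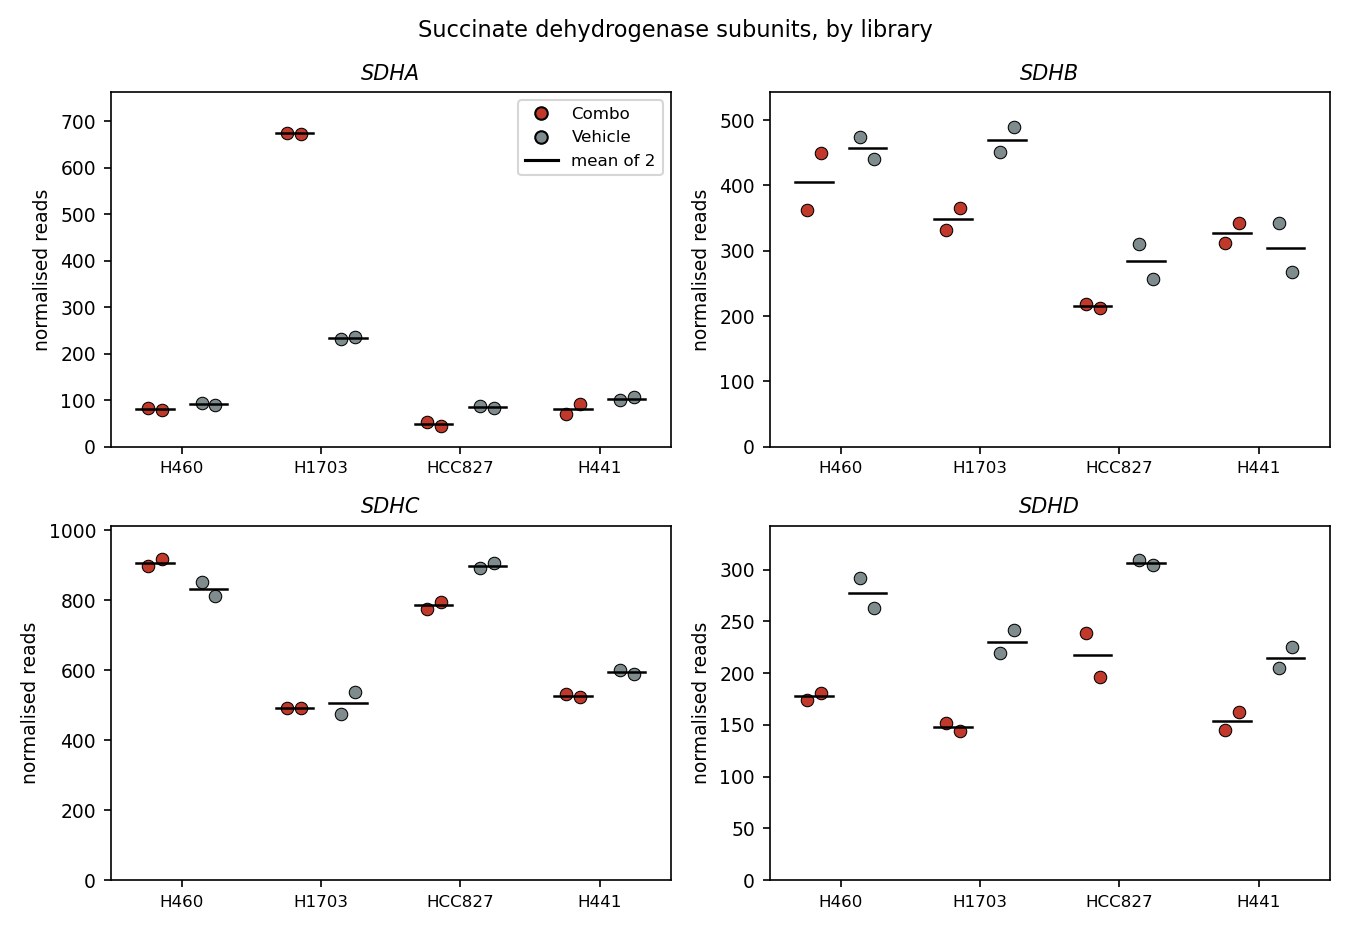
Normalised reads of the 4 succinate dehydrogenase subunit genes in every library, Combo (red) left of Vehicle (grey) in each line, with a bar at the mean of 2 libraries. SDHA in H1703 stands at 675 and 673 with Combo and 231 and 236 with Vehicle, while SDHD Combo points lie below Vehicle points in every line.

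Among the 4 complex II assembly factors, SDHAF4, which binds flavinated SDHA before SDHB joins it, was the one called. It was called over the responsive lines and in H1703, or 25% of the 4 in each, where 38.5% and 35.5% of all genes were. It had 36.7 and 46.8 normalised reads in H460 with Combo and 18.6 and 27.5 with Vehicle, and 76.2 and 63 in H1703 with Combo and 32.1 and 44.8 with Vehicle. In both lines the Combo libraries lay above the Vehicle libraries. The rise over the responsive lines was 0.81 ± 0.21 (limma adjusted p = 0.00453), and in single lines it passed in H1703 (0.82 ± 0.30, adjusted p = 0.0391; 0.267 without H1703 Vehicle replicate 1, 0.144 under median centring and 0.0971 with quantile normalisation). HCC827 gave 0.65 ± 0.30 and H441 0.25 ± 0.30, neither past the threshold, and the difference between the classes was not called (adjusted p = 0.447). SDHAF1, SDHAF2 and SDHAF3 passed in no line.

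Complex III genes were called lower mostly in the responsive lines. Over those lines 5 of its 10 genes were called, all lower, with a median of -0.31, where 38.5% of all genes tested were called and 17.9% were called lower. Over the non-responsive lines, where 12.3% of all genes were called and 6.05% were called lower, limma called 0 of 10. Of these genes 2 had an unadjusted p under 0.05, limma voom on recovered reads called 0, and the median was -0.04. The difference of the responses between the classes was called for 3 of the 10, 2 lower and 1 higher, where 23.3% of all genes were called. UQCRFS1, the Rieske iron-sulfur protein that takes electrons from ubiquinol, had 298 and 366 normalised reads in H460 with Combo and 584 and 503 with Vehicle. In H1703 it had 262 and 263 with Combo and 493 and 490 with Vehicle. HCC827 had 235 and 263 with Combo and 353 and 272 with Vehicle, and H441 had 284 and 271 with Combo and 220 and 251 with Vehicle, where Combo was the higher. UQCRFS1 fell in H460 (-0.71 ± 0.14) and in H1703 (-0.90 ± 0.14) (limma adjusted p = 0.00042 and 2.3e-05). Its response was more negative in the responsive lines by -0.77 ± 0.14 (limma adjusted p = 0.000262). UQCRFS1 shares 13.7% of its 50-base stretches with the pseudogene UQCRFS1P1.

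CYC1, the cytochrome c1 subunit that reduces cytochrome c, was also called lower in H460 and H1703. It had 342 and 381 normalised reads in H460 with Combo and 473 and 497 with Vehicle, and 271 and 313 in H1703 with Combo and 436 and 502 with Vehicle. In HCC827 it had 208 and 243 with Combo and 218 and 165 with Vehicle, and in H441 430 and 550 with Combo and 432 and 485 with Vehicle, and in both of these lines the groups overlapped. CYC1 fell by 0.55 ± 0.10 over the responsive lines (limma adjusted p = 0.000211), with a difference from the non-responsive lines of -0.72 ± 0.15 (adjusted p = 0.00102). Its H460 call was lost in 4 fits that left out a library, with adjusted p = 0.185 without H460 Combo replicate 1.

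The small subunits UQCR11 and UQCRQ fell in H1703, at -1.18 ± 0.26 and -0.80 ± 0.16 (limma adjusted p = 0.00115 and 0.000423), and UQCR10 fell over the responsive lines by 0.51 ± 0.15 (adjusted p = 0.00911; 0.0547 without H1703 Vehicle replicate 1). UQCRB, a ubiquinone-binding subunit, went the other way in the class comparison. It had 546 and 586 normalised reads in H460 with Combo and 454 and 446 with Vehicle, and 272 and 305 in HCC827 with Combo and 325 and 398 with Vehicle. No single line passed for UQCRB, but the difference of responses, 0.44 ± 0.13, did (limma adjusted p = 0.0149), and it was lost in 4 fits that left out a library (adjusted p = 0.0533 without HCC827 Vehicle replicate 2) and under median centring. UQCRH, the hinge subunit, and its near copy UQCRHL passed in no line, and UQCRHL had 5.52 to 15.3 normalised reads in any library. The core subunits UQCRC1 and UQCRC2 were each called lower in 1 line. The H1703 call of UQCRC1 (-0.31 ± 0.12) was lost in 9 of those 16 fits, with adjusted p = 0.447 without H1703 Combo replicate 1. The HCC827 call of UQCRC2 (-0.31 ± 0.09) was lost in 11, with adjusted p = 0.352 without HCC827 Vehicle replicate 1.

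CYCS, the soluble carrier between complexes III and IV that also takes part in apoptosis, had 1872 and 2070 normalised reads in H460 with Combo and 2788 and 2631 with Vehicle. In H1703 it had 1356 and 1424 with Combo and 1973 and 2204 with Vehicle. HCC827 had 1409 and 1108 with Combo and 1297 and 1172 with Vehicle, and H441 had 611 and 617 with Combo and 710 and 681 with Vehicle. The groups did not overlap in H460, H1703 and H441, and they overlapped in HCC827. The change was -0.52 ± 0.07 over the responsive lines (limma adjusted p = 4.66e-06), the non-responsive lines gave -0.08 ± 0.07 (adjusted p = 0.55), and the difference was -0.44 ± 0.10 (adjusted p = 0.00239).

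Complex IV subunits had the most calls in H1703. There 6 of 11 tested subunit genes were called, all lower, with a median of -0.55. H1703 also had the largest share of all genes called, 35.5%, with 17.6% called lower. H460 had 1 call, where 26.7% of all genes were called, and a median of -0.04. That median was 0.005 with quantile normalisation. Under median centring it was -0.23 with 4 called lower, where 18.8% of all genes were called lower. HCC827 had 1 call and a median of -0.15, where 9.92% of all genes were called. In H441 limma called 0 of 11, with 0 at an unadjusted p under 0.05 and 0 by limma voom, and the median was 0.01. Of all genes, 4.63% were called in H441. COX6C, a small subunit, had 1098 and 1218 normalised reads in H1703 with Combo and 2080 and 2070 with Vehicle. In H460 it had 1571 and 1668 with Combo and 1511 and 1383 with Vehicle, so the direction of the 2 responsive lines was not the same. COX6C fell by 0.84 ± 0.09 in H1703 (limma adjusted p = 2.55e-07), and its response differed among the 4 lines (limma F test, adjusted p = 9.1e-06). COX7A2, a dimer-forming subunit, likewise had 122 and 128 normalised reads in H1703 with Combo and 222 and 223 with Vehicle, a change of -0.82 ± 0.16 (adjusted p = 0.000482), whereas in H460 its groups overlapped at 176 and 227 with Combo and 210 and 161 with Vehicle.

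COX6B1, which caps the dimer and faces the intermembrane space, had 826 ± 46.7 normalised reads in H460 with Combo and 1061 ± 15.6 with Vehicle (SD, n = 2 each), and 425 ± 22 in H1703 with Combo and 691 ± 38.4 with Vehicle. HCC827 had 396 ± 5.66 with Combo and 503 ± 6.75 with Vehicle, and H441 had 352 ± 42.3 with Combo and 410 ± 61.6 with Vehicle, where the groups overlapped. It passed over the responsive lines (-0.53 ± 0.08, limma adjusted p = 1.33e-05) and over the non-responsive lines (-0.28 ± 0.08, adjusted p = 0.0217; 0.134 without H441 Vehicle replicate 1). COX7B was called lower in H1703 (-0.65 ± 0.14) and in HCC827 (-0.56 ± 0.14, adjusted p = 0.0163; 0.2 without HCC827 Combo replicate 2). COX5B and COX4I1, which bind near the catalytic core, were called lower in H1703, at -0.55 ± 0.10 and -0.27 ± 0.07, and the COX4I1 call was lost without H1703 Vehicle replicate 2 (adjusted p = 0.0587) and with quantile normalisation (-0.05, adjusted p = 0.641). COX5A and COX7C passed in no line. COX6A1 and COX8A had 10.9 to 49 and 24 to 86.8 normalised reads over the 16 libraries and also passed in no line.

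The tissue-restricted isoforms were barely read. COX7A1, the heart and muscle form, had 0 to 8.65 normalised reads in any library. COX6B2, the testis form, had 0 reads in all 8 libraries of H1703 and H441, where a count of 0 allows up to 3 reads. In HCC827 COX6B2 had 5.88 and 11.1 normalised reads with Combo and 2.42 and 6.08 with Vehicle, a ratio of 1.99 with an exact 95% counting interval of 0.814 to 5.33. These intervals cover counting error only.

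COX7A2L, which joins complexes III and IV into supercomplexes, rose in the responsive lines. Over these lines 5 of 10 complex III genes and 6 of 11 complex IV subunits were called lower, where 17.9% of all genes tested were. It had 1133 and 1335 normalised reads in H460 with Combo and 806 and 737 with Vehicle, and 1187 and 1352 in H1703 with Combo and 969 and 1117 with Vehicle. HCC827 libraries had 689 and 668 with Combo and 651 and 694 with Vehicle, and in H441 429 and 460 with Combo and 461 and 449 with Vehicle. The groups were separate in H460 and H1703 and overlapped in HCC827 and H441. The rise was 0.67 ± 0.10 in H460 and 0.28 ± 0.10 in H1703 (limma adjusted p = 3.57e-05 and 0.0355), and the H1703 call was lost without H1703 Vehicle replicate 1 (adjusted p = 0.321) and under median centring (0.818). The responsive lines exceeded the non-responsive lines in this response by 0.49 ± 0.10 (limma adjusted p = 0.00129), a call lost under median centring.

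Among the 9 tested assembly factors of complex IV, 2 were called higher and 1 lower over the responsive lines, a share near the 38.5% of all genes called there. Their median was 0.005, which was -0.21 with 1 higher and 4 lower under median centring. Of all genes tested, 12.5% were called higher and 26.3% lower over the responsive lines under that setting. Another 1 of the 9 was called lower over the non-responsive lines, with a median of -0.07. There 12.3% of all genes were called and 6.05% were called lower. COX19, a factor linked to copper handling, had 183 and 152 normalised reads in H460 with Combo and 135 and 114 with Vehicle, 301 and 336 in H1703 with Combo and 203 and 223 with Vehicle, and 192 and 182 in HCC827 with Combo and 125 and 131 with Vehicle. It rose in these 3 lines by 0.41 ± 0.15, 0.58 ± 0.15 and 0.54 ± 0.15 (limma adjusted p = 0.0411, 0.00393 and 0.0223), and the groups did not overlap in any of them. The H460 call was lost without H460 Vehicle replicate 2 (adjusted p = 0.269) and the HCC827 call without HCC827 Vehicle replicate 1 (0.134). The H460 and H1703 calls were also lost under median centring (0.317 and 0.0942), and 20.8% of its 50-base stretches are shared with ADAP1 on the same strand. COX10, which makes the haem of the enzyme, was higher over the responsive lines by 0.27 ± 0.08 (adjusted p = 0.0165; 0.0671 without H460 Vehicle replicate 1), a call also lost under median centring.

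COX11, a copper chaperone, had 482 and 406 normalised reads in HCC827 with Combo and 617 and 580 with Vehicle, a change of -0.43 ± 0.10 (limma adjusted p = 0.011; 0.177 without HCC827 Combo replicate 2). COX14 fell in H1703 (-1.04 ± 0.32, adjusted p = 0.0134; 0.207 without H1703 Vehicle replicate 2). COX16 had 2 recovered reads in H1703 with Combo and 14 with Vehicle, a ratio of 0.16 with an exact 95% counting interval of 0.0177 to 0.698, and its fitted change over the responsive lines was -1.04 ± 0.37 (limma adjusted p = 0.0304; 0.0896 without H460 Vehicle replicate 2). It shares 30.2% of its 50-base stretches with the read-through gene SYNJ2BP-COX16.

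Complex V subunit genes fell in most cases over the responsive lines. There 16 of its 18 subunit genes were called, all lower, with a median of -0.46, where 17.9% of all genes tested were called lower. Over the non-responsive lines 7 were called, all lower, with a median of -0.24, where 6.05% of all genes were called lower. Complex II subunits had 2 of 4 called lower over the non-responsive lines, with a median of -0.34. By part of the enzyme, 5 of 5 genes of the catalytic F1 head, 4 of 4 of the peripheral stalk, 2 of 3 for the c ring and 5 of 6 of the membrane part were called lower over the responsive lines. In H1703 13 of the 18 were called lower, in H460 8, in HCC827 7 and in H441 1. Of all genes tested, 17.6%, 12.6%, 5.5% and 1.86% were called lower in these lines. Under median centring the counts were 15, 15, 7 and 0, where 24.3%, 18.8%, 5.49% and 1.41% of all genes were called lower. The count over the responsive lines was 16 under median centring as well, and 15 with quantile normalisation. Of all genes, 26.3% and 19.1% were called lower under these 2 settings.

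ATP5F1C, the gamma subunit that turns inside the F1 head, was lower in every line, with 1222 and 1260 normalised reads in H460 with Combo and 1967 and 1944 with Vehicle. In H1703 it had 882 and 954 with Combo and 2112 and 1863 with Vehicle. In HCC827 it had 521 and 492 with Combo and 642 and 667 with Vehicle, and in H441 874 and 901 with Combo and 1160 and 1063 with Vehicle. No Combo library overlapped a Vehicle library of its line, and the changes were -0.66 ± 0.08 (H460), -1.11 ± 0.08 (H1703), -0.37 ± 0.08 (HCC827) and -0.32 ± 0.08 (H441), all called (limma adjusted p = 4.47e-06, 2.38e-09, 0.00676 and 0.0308). The fall was larger in the responsive lines, with a difference of -0.54 ± 0.08 (limma adjusted p = 7.01e-05). The H441 call was lost in 4 fits that left out a library (adjusted p = 0.249 without H441 Vehicle replicate 1), and the HCC827 call in 2 (0.084 without HCC827 Combo replicate 2).

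The catalytic pair behaved alike in H460 and H1703. ATP5F1B, the beta subunit that makes ATP, had 5194 and 5841 normalised reads in H460 with Combo and 7105 and 6436 with Vehicle, and 1790 and 1927 in H1703 with Combo and 2930 and 2882 with Vehicle. ATP5F1A, the alpha subunit, had 1963 and 2228 in H460 with Combo and 2596 and 2515 with Vehicle, and 1794 and 1961 in H1703 with Combo and 3112 and 3244 with Vehicle. Over the responsive lines ATP5F1A changed by -0.52 ± 0.05 and ATP5F1B by -0.47 ± 0.05 (limma adjusted p = 1.02e-07 and 3.02e-07). In HCC827 ATP5F1A had 1307 and 1309 normalised reads with Combo and 1763 and 1781 with Vehicle, a change of -0.44 ± 0.07 (adjusted p = 0.000697) that was the one HCC827 call kept in all 16 fits that left out a library. ATP5F1D and ATP5F1E, the delta and epsilon subunits of the central stalk, were called lower in H1703, at -0.91 ± 0.16 and -0.45 ± 0.13, the second lost without H1703 Combo replicate 2 (adjusted p = 0.232). The H460 calls of ATP5F1A and ATP5F1B were lost without H460 Combo replicate 1 (adjusted p = 0.0844) and without H460 Vehicle replicate 1 (0.0841).

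The 3 genes for subunit c, which encode the same mature protein of the membrane ring behind different import sequences, did not move together. ATP5MC3 had 580 and 610 normalised reads in H460 with Combo and 1047 and 1083 with Vehicle, and 110 and 110 in H1703 with Combo and 322 and 338 with Vehicle. HCC827 libraries had 252 and 237 with Combo and 310 and 342 with Vehicle, and in H441 156 and 179 with Combo and 190 and 203 with Vehicle. The groups were separate in all 4 lines, and called changes were -0.84 ± 0.11 in H460, -1.56 ± 0.11 in H1703 and -0.41 ± 0.11 in HCC827 (limma adjusted p = 6.99e-06, 9.94e-10 and 0.0207; HCC827 0.166 without HCC827 Vehicle replicate 2). The H441 value, -0.23 ± 0.11, did not pass, and the difference between the classes was -0.88 ± 0.11 (limma adjusted p = 6.1e-06).

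ATP5MC1 had 323 and 260 normalised reads in H460 with Combo and 360 and 387 with Vehicle, and 200 and 229 in H1703 with Combo and 372 and 376 with Vehicle. In HCC827 it had 181 and 188 with Combo and 259 and 230 with Vehicle, and in H441 119 and 140 with Combo and 119 and 86.8 with Vehicle. It passed in H1703 (-0.80 ± 0.15, limma adjusted p = 0.000342) and in the difference between classes (-0.55 ± 0.15, adjusted p = 0.0128). ATP5MC2 had 519 and 514 normalised reads in H460 with Combo and 427 and 429 with Vehicle, and 347 and 379 in H1703 with Combo and 360 and 309 with Vehicle. HCC827 libraries had 340 and 387 with Combo and 431 and 432 with Vehicle, and in H441 272 and 297 with Combo and 325 and 288 with Vehicle. ATP5MC2 passed in no line, and over the responsive lines its change was 0.20 ± 0.08 (limma adjusted p = 0.058), while the difference between classes, 0.37 ± 0.11, did pass (adjusted p = 0.0193; 0.0626 without H1703 Vehicle replicate 2) and was lost under median centring.

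**Figure D4:**
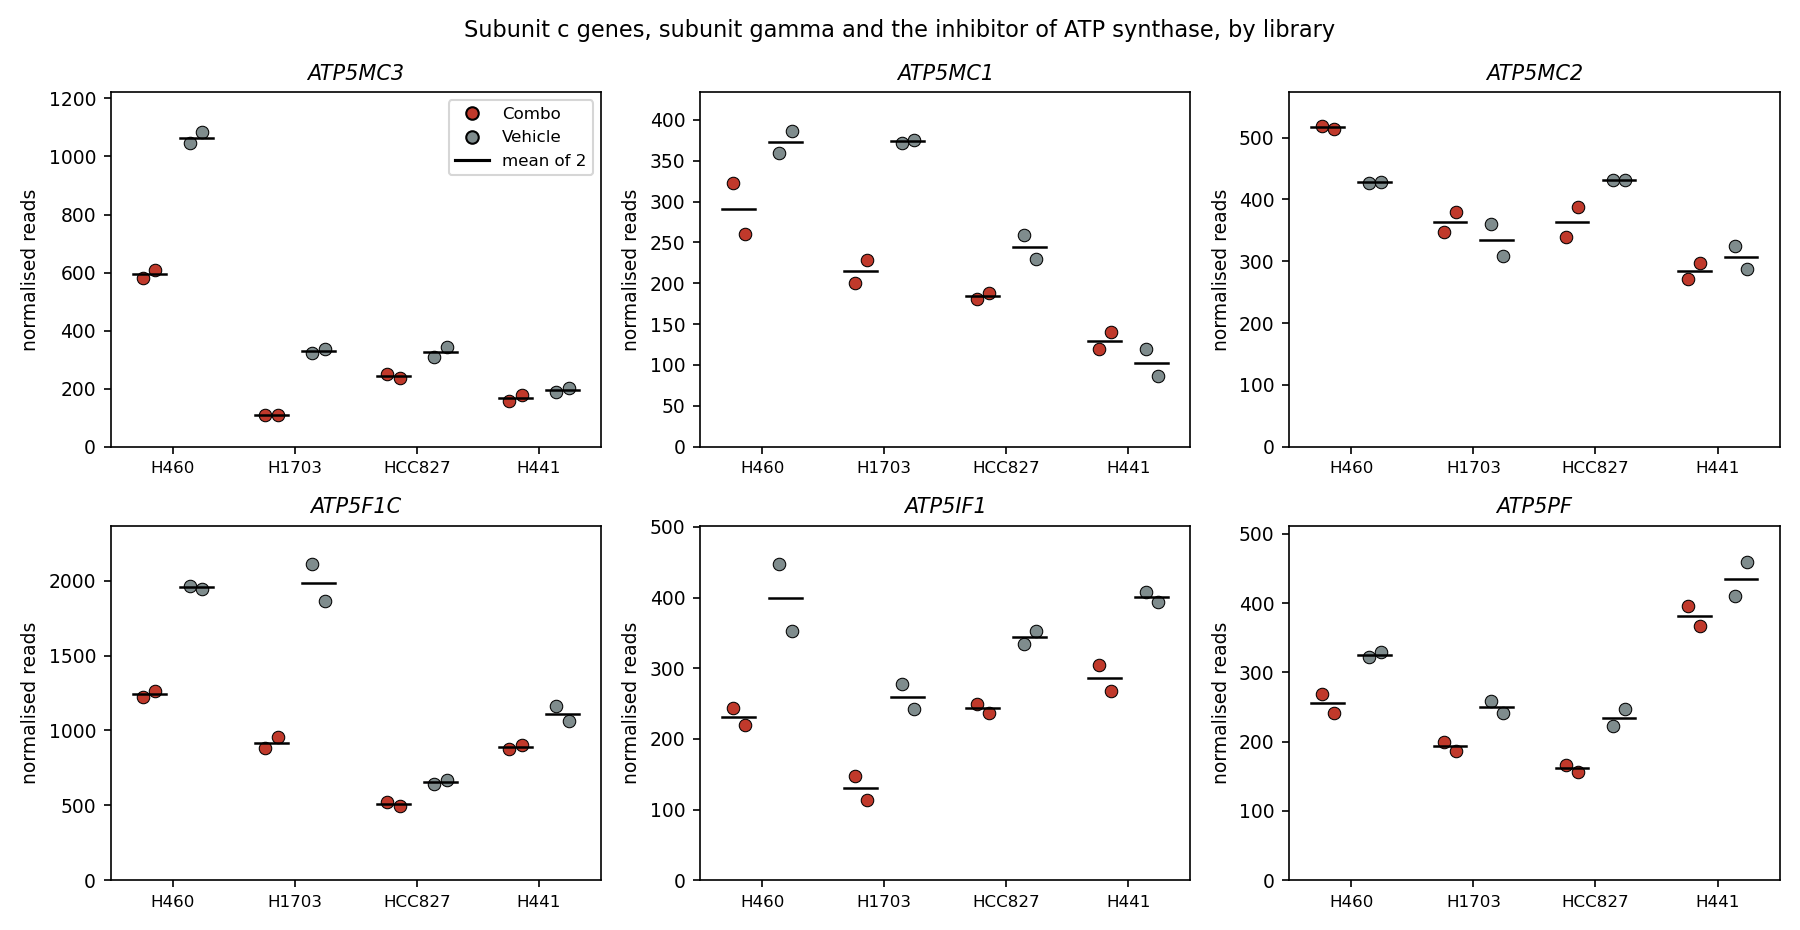
Normalised reads of the 3 subunit c genes, ATP5F1C, ATP5IF1 and ATP5PF in every library, Combo (red) left of Vehicle (grey) in each line, with a bar at the mean of 2 libraries. ATP5MC3 stands at 110 and 110 with Combo in H1703, against 322 and 338 with Vehicle, while ATP5MC2 in H1703 stands at 347 and 379 with Combo and 360 and 309 with Vehicle.

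Among the peripheral stalk genes, ATP5PB, the b subunit, fell by 0.59 ± 0.07 over the responsive lines (limma adjusted p = 1.32e-06) with a difference between classes of -0.49 ± 0.10 (adjusted p = 0.00123). ATP5PF, coupling factor 6, had 269 and 242 normalised reads in H460 with Combo and 322 and 329 with Vehicle, 199 and 187 in H1703 with Combo and 259 and 241 with Vehicle, and 167 and 156 in HCC827 with Combo and 222 and 247 with Vehicle. It was called lower in these 3 lines, calls lost without H460 Combo replicate 2 (adjusted p = 0.188), H1703 Vehicle replicate 1 (0.126) and HCC827 Vehicle replicate 2 (0.0734). Its change over the responsive lines and that over the non-responsive lines were both -0.36 ± 0.08 (limma adjusted p = 0.00167 and 0.00658). ATP5MF, a membrane subunit, had 121 and 102 normalised reads in HCC827 with Combo and 161 and 187 with Vehicle, and 143 and 136 in H441 with Combo and 186 and 189 with Vehicle. Its change was -0.67 ± 0.12 over the responsive and -0.52 ± 0.12 over the non-responsive lines (limma adjusted p = 0.000139 and 0.00625). Its HCC827 call was lost without HCC827 Combo replicate 2 (adjusted p = 0.202), and its exons overlap those of the read-through gene ATP5MF-PTCD1, which passed in no line. ATP5MGL, a near copy of ATP5MG, had 0.974 to 11.2 normalised reads in any library and was the membrane gene not called over the responsive lines.

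ATP5IF1, the inhibitor that stops ATP synthase from running backwards, fell together with the enzyme. It had 244 and 219 normalised reads in H460 with Combo and 448 and 352 with Vehicle, and 147 and 113 in H1703 with Combo and 277 and 242 with Vehicle. In HCC827 it had 249 and 237 with Combo and 334 and 353 with Vehicle, and in H441 305 and 268 with Combo and 408 and 394 with Vehicle. No groups overlapped, and called changes were -0.78 ± 0.14, -0.99 ± 0.14 and -0.49 ± 0.14 in H460, H1703 and HCC827 (limma adjusted p = 0.000294, 1.27e-05 and 0.0307; HCC827 0.178 without HCC827 Combo replicate 2). H441 gave -0.48 ± 0.14 (adjusted p = 0.0584), and the difference between the classes, -0.40 ± 0.14, did not pass (adjusted p = 0.0509).

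The assembly factor ATPAF1, which guards the beta subunit, had 598 and 550 normalised reads in H460 with Combo and 847 and 799 with Vehicle. It fell by 0.52 ± 0.09 in that line (limma adjusted p = 0.000121), while H1703 had 371 and 402 with Combo and 406 and 406 with Vehicle and did not pass. ATPAF2 passed in no line. ATP5S, also called DMAC2L, rose in H1703, with 389 and 333 normalised reads with Combo and 217 and 233 with Vehicle (0.67 ± 0.15, limma adjusted p = 0.00119), and over the responsive lines (0.47 ± 0.10, adjusted p = 0.00121), the second of which was lost under median centring.

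Over the classes as a whole, 39 of 63 genes were called over the responsive lines, 33 lower and 6 higher, where 38.5% of all genes tested were called, 17.9% lower and 20.6% higher. The median was -0.29, beside 0.10 over all genes. Over the non-responsive lines 13 were called, all lower, where 12.3% of all genes were called, 6.05% lower and 6.25% higher. The difference of the responses was called for 18 genes, 13 lower and 5 higher in the responsive lines, where 23.3% of all genes were called, 12.1% lower and 11.2% higher. A response that differed among the 4 lines was called for 22 of 63 genes, a share near the 31.8% of all genes tested. Centring each library on its median moved the median of all genes by -0.22 over the responsive lines and by -0.21 in the difference, and quantile normalisation moved it by -0.10 over the responsive lines. With median centring, higher calls made up 4.65% of the members' calls in H1703, against 16.7% without it, and 4.76% in the difference, against 27.8% without it. Among the calls over all genes tested, the share of higher calls also fell with centring. It was 31.1% in H1703, against 50.4% without centring, and 23.9% in the difference, against 48%.

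The classes also differed before treatment. In Vehicle libraries 37 of 63 genes were called between the classes, 33 higher and 4 lower in the responsive lines, where 56.3% of all genes tested were called, 28.8% higher and 27.6% lower. By role, 7 of 10 complex III subunits, 7 of 11 complex IV subunits, 11 of 18 complex V subunits and 2 of 4 complex II subunits were higher in H460 and H1703. ATP5MD, a small membrane subunit of ATP synthase, had 313 and 310 normalised reads in H460 Vehicle and 335 and 397 in H1703 Vehicle, against 142 and 144 in HCC827 Vehicle and 102 and 87.9 in H441 Vehicle. CYCS had 2788, 2631, 1973 and 2204 in the responsive Vehicle libraries, against 1297, 1172, 710 and 681 in the non-responsive ones. The responsive libraries lay above all non-responsive libraries for both genes, with differences of 1.51 ± 0.10 and 1.36 ± 0.07 (limma adjusted p = 9.98e-11 and 1.41e-12).

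ATP5MC1 and ATP5MC3 were higher in the responsive Vehicle libraries by 1.23 ± 0.11 and 1.22 ± 0.08 (limma adjusted p = 5.87e-09 and 4.14e-11). The ATP5MC3 difference came mostly from H460, at 1047 and 1083 normalised reads, since H1703 at 322 and 338 overlapped HCC827 at 310 and 342. In the other direction, ATPAF1 had 847 and 799 in H460 and 406 and 406 in H1703, against 1079 and 1057 in HCC827 and 691 and 659 in H441, a difference of -0.55 ± 0.06 (adjusted p = 1.89e-07) in which H460 stood above H441. ATP5S, ATPAF2 and SDHC were also lower in the responsive lines, by -0.48 ± 0.10, -0.43 ± 0.13 and -0.17 ± 0.06, and the ATPAF2 and SDHC calls were lost without H441 Vehicle replicate 1 (adjusted p = 0.0767) and H1703 Vehicle replicate 1 (0.107). Vehicle levels differed among the 4 lines for 48 of 63 genes, where 73.4% of all genes tested did. The vehicle difference and the responses share the Vehicle libraries, so the 2 sets of values are given side by side only.

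**Figure D5:**
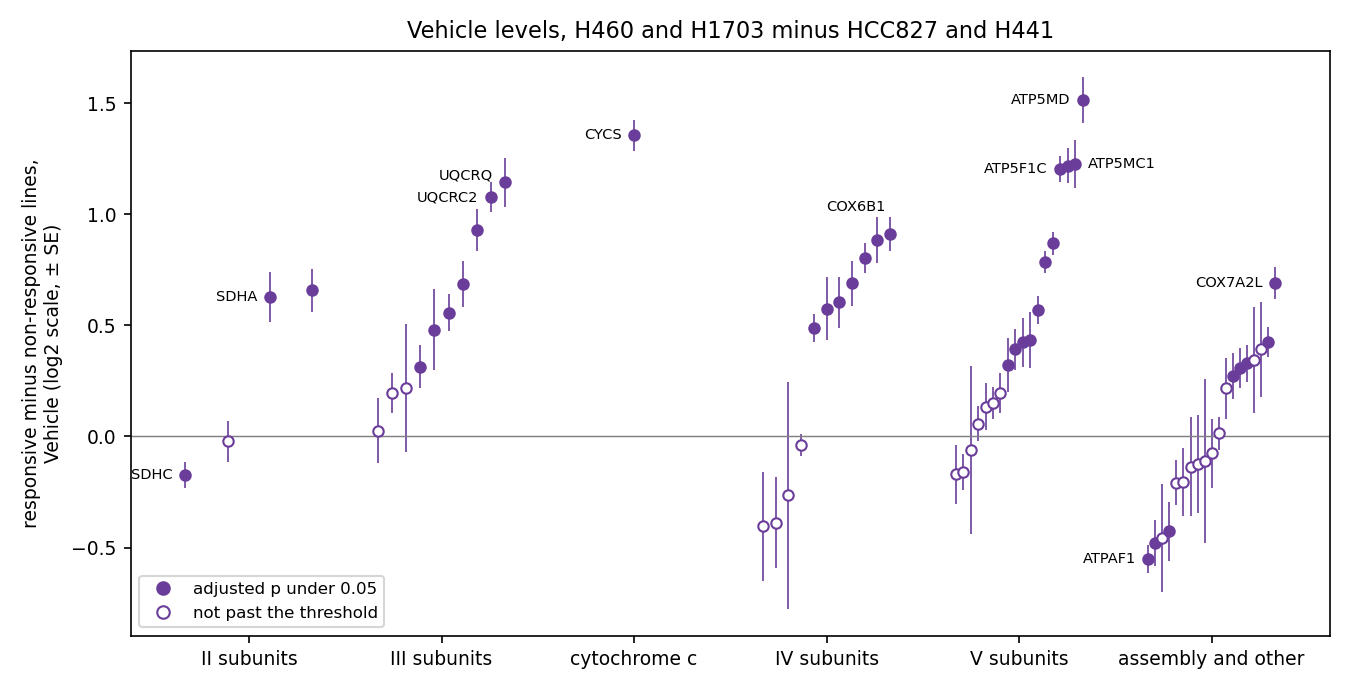
Vehicle level of each tested gene in H460 and H1703 minus that in HCC827 and H441, on the log2 scale with SE, grouped by complex and sorted within each group, filled where the adjusted p was under 0.05 (limma). ATP5MD at 1.51 and CYCS at 1.36 are the highest points, and ATPAF1 at -0.55 is the lowest.

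The partners of these genes were followed as 3 lists. Mitochondrial DNA encodes 6 subunits of complexes III to V in the table, with a median change of -1.20 in H1703, -0.43 in H441, -0.40 in HCC827 and 0.24 in H460. In H460, 12 of 43 nuclear subunits were called lower, where 12.6% of all genes tested were called lower and 14.1% higher. In that line MT-CO1 and MT-CO2 of complex IV were called higher, by 1.11 ± 0.05 and 0.59 ± 0.12, although MT-CO1 was not called with quantile normalisation (0.31, limma adjusted p = 0.169). In H1703, MT-ATP6 and MT-ATP8 of complex V changed by -1.52 ± 0.13 and -1.43 ± 0.19, MT-CO3 by -1.40 ± 0.15 and MT-CYB of complex III by -0.996 ± 0.15, while MT-CO1 was called higher by 0.15 ± 0.05 but stood at -0.09 under median centring and at -0.59 with quantile normalisation. In the non-responsive lines 4 of the 6 were called lower, 1 with limma voom, where 6.05% of all genes were called lower, 6.68% with limma voom. The farthest from zero was MT-CO3 at -0.62 ± 0.11. Of 32 further assembly and supply factors tested, 14 were called lower and 3 higher over the responsive lines, where 17.9% of all genes were called lower and 20.6% higher, with TMEM70, which helps to build ATP synthase, at -0.99 ± 0.10 and UQCC2, a complex III assembly factor, at 0.48 ± 0.07. Over the non-responsive lines 3 of these factors were lower and 2 higher, where 6.05% of all genes were called lower and 6.25% higher. HIGD2A stood at -0.58 ± 0.15, which did not pass without HCC827 Combo replicate 1, and TTC19 at 0.39 ± 0.06. Of 13 regulators of respiratory genes, 5 were called lower and 2 higher over the responsive lines, beside the same shares of all genes. TFAM, which packages mitochondrial DNA and helps to start its transcription, changed by -1.06 ± 0.06 there. In the non-responsive lines TFAM changed by -0.22 ± 0.06, which did not pass without HCC827 Combo replicate 2. The difference between the classes was -0.85 ± 0.09 (limma adjusted p = 6.7e-07). MYC transcripts rose by 0.64 ± 0.08 over the responsive lines.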

How the data were processed

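Gene-level RNA was measured by sequencing in 16 libraries. The authors deposited log2-scale values for 28951 genes, made by a variance-stabilising transformation of gene counts scaled per library. Per the submitters' processing notes, the tools were Trimmomatic, STAR and featureCounts and the build was hg38; their versions, settings and strand, and the annotation release, are not given in the sources used here. Of the gene IDs, 28846 were found in GENCODE 29, which gave the symbols.

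Reads were recovered by inverting that transformation, and 100% of values came out whole within a tolerance of 0.02. Normalised reads are these reads over the implied size factor, and depth was 8493271 to 13604150 reads per library, where 3 reads is the limit that a count of 0 allows.

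Each comparison came from one limma 3.58.1 fit (R 4.3.3) of the 8 group means on the log2 values, with trend and robust settings, over the 23968 genes whose mean stood at least 1 above the table's lowest value. Benjamini-Hochberg adjustment ran over all of them, with a threshold of 0.05. The fit was tested on simulated data before use. Alternatives changed the filter, the scaling, the empirical Bayes settings, the test (limma voom on recovered reads), the libraries in the fit and a replicate block, and left out each library in turn.

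Values in every library were given for the up to 4 largest called falls and rises in each class comparison, the largest called change per line, the isoform families, the succinate dehydrogenase subunits, CYCS and ATP5IF1. Some further genes, the SDHA neighbours and the 4 promoters shown were chosen after values were seen. The members and lists were chosen with earlier results of these data known.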

Additional observations from a re-analysis of the deposited data

Results flagged for a closer look

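The response to Combo differed between the responsive and the non-responsive lines for 18 of the 63 tested genes, in limma's test of the difference itself, and each stands here for that reason. These 18 genes are 28.6% of the 63, a share near the 23.3% of all genes tested that were called. Values are the response in H460 and H1703 minus that in HCC827 and H441, on the log2 scale. Among the genes of complexes III and IV and cytochrome c, the difference was -0.77 for UQCRFS1, -0.72 for CYC1, -0.44 for CYCS, -0.36 for COX6C, -0.36 for COX5B and -0.21 for COX4I1. Among the ATP synthase genes it was -0.88 for ATP5MC3, -0.55 for ATP5MC1, -0.54 for ATP5F1C, -0.49 for ATP5PB, -0.38 for ATP5ME, -0.29 for ATP5F1B and -0.21 for ATP5F1A. On the other side of zero it was 1.23 for SDHA, 0.49 for COX7A2L, 0.44 for UQCRB, 0.37 for ATP5MC2 and 0.33 for COX11. The responsive lines did not move the same way for SDHA (1.52 in H1703, -0.18 in H460), COX6C (-0.84 in H1703, 0.16 in H460) and COX11 (-0.20 in H1703, 0.21 in H460). The calls of SDHA, UQCRFS1, CYC1, CYCS, ATP5F1C, ATP5PB and ATP5MC3 were kept under every alternative tried. At least one fit that left out a library lost the calls of ATP5F1A (14 of 16 fits), ATP5ME (11), COX4I1 (8), COX11 (5), UQCRB (4) and ATP5MC2 (3). With neither trend nor robust settings, the calls of COX5B, COX6C, ATP5F1B and ATP5MC1 were lost (limma adjusted p = 0.0836, 0.0571, 0.0786 and 0.0516). The COX7A2L call was lost under median centring (limma adjusted p = 0.0745). All 18 differences share the Vehicle libraries with the line responses given above.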

How the results depend on the processing

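Of the 176 called changes of the 63 genes, none turned its direction under the alternatives run, and 42 were lost with neither trend nor robust settings, 16 under median centring (41 gained), 11 with quantile normalisation, 7 with no filter and 3 with limma voom, and 28 of 158 when only the libraries compared were fitted. Genes called in H460 numbered 28 under median centring, 11 with neither setting and 8 with only the libraries compared, against 17. HCC827 had 3 with neither setting and 4 with only the libraries compared, against 14. H441 had 1 with no filter and 0 under median centring, with neither setting and with only the libraries compared, against 2. With neither setting, the difference between classes had 8, against 18, and the line by treatment test 9, against 22. Leaving out 1 library at a time gave 10 to 18 calls in H460, 28 to 37 in H1703, 1 to 16 in HCC827 and 0 to 3 in H441. It gave 32 to 39 over the responsive lines, 9 to 15 over the non-responsive lines, 14 to 20 in the difference, 16 to 22 in the line by treatment test, 34 to 38 in the vehicle difference and 45 to 50 for vehicle levels among lines. Where this leaves a group with 1 library, that library is assumed to vary like the others.

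Deviations of same-numbered libraries correlated at 0.0136 to 0.0319 across all genes tested, and over the 11152 genes of higher level at 0.0581 (H441), 0.0772 (HCC827), 0.0916 (H1703) and 0.238 (H460). Since not every line passed 0.1, the numbers were not taken to pair the libraries. A replicate block gave 18 calls in H460, 37 in H1703, 14 in HCC827, 3 in H441, 39 over the responsive lines, 13 over the non-responsive lines, 19 in the difference, 20 in the line by treatment test, 37 in the vehicle difference and 48 for vehicle levels. A replicate block within line gave 21, 36, 14, 3, 39, 17, 21 and 23 for the first 8 of these. Genes of few reads, such as COX16, COX7A1 and UQCRHL, are limited by depth.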

Other observations

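The rise of SDHA in H1703 stood beside changes of its chromosomal neighbours, which were looked at after the SDHA values were seen. Of 16 tested genes within 500 kb of SDHA, 8 were called higher and 1 lower in H1703 with Combo (limma, Benjamini-Hochberg), with a median of 1.14, where 17.9% of all genes were called higher. PLEKHG4B averaged 1733 normalised reads in H1703 with Combo and 683 with Vehicle, a change of 1.34 ± 0.35, and PDCD6 averaged 386 with Combo and 171 with Vehicle, a change of 1.16 ± 0.18. SLC9A3, a sodium-proton exchanger, averaged 246 with Combo and 39 with Vehicle, a change of 2.70 ± 0.29. The same 16 genes gave a median of 0.08 in H460, 0.22 in HCC827 and -0.05 in H441, with 1 called higher in HCC827 and 1 called lower in each of these 3 lines.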
